A study of Mus musculus with 3 samples.

Results

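The complement regulators and C1q were followed across the cell classes of mouse liver, as 8 of the 55421 genes counted in each library. They are the membrane regulators Cd55, Cd59a and Cr1l, the C1q subunits C1qa, C1qb and C1qc, the properdin gene Cfp, and C3. The members were chosen by role in complement and selected on measured values of these data: the Cd59a level in endothelial cells and the Cd55 level in Kupffer cells, both far above the control. Those values are therefore given as a description and support nothing. The study holds 3 single-cell libraries, each from the liver of 1 wild-type mouse, and all 3 mice ate an iron-deficient diet for 1 week. The IDD mouse was the control and stayed on that diet. The IDD+HTF mouse received 10 mg of holo-transferrin, the plasma iron carrier in its iron-bound form, by vein, and the time from the injection to collection is not given in the labels. The IDD+HID mouse spent the last 18 h on a high-iron diet (2% carbonyl iron). The labels give neither age nor sex. Cells were mixed from 5% of the hepatocyte suspension and 95% of the suspension of the other cells, so the share of each class reflects that mixing. With 1 mouse per group no test across mice was possible, no p-value is given, and no difference has a replicate check.

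Complement is a cascade of plasma proteins that marks cells and particles for clearance and can open pores in membranes. C1q starts the classical pathway when it binds antibody or altered surfaces, C3 is the protein on which all routes meet, and properdin stabilises the alternative-pathway enzyme that cleaves C3. Host cells carry regulators: CD55 (decay-accelerating factor) dissociates the C3-cleaving enzymes, Cr1l encodes Crry, a rodent cofactor for their inactivation, and CD59 blocks assembly of the membrane pore. CD55 and CD59 are held on the surface by a glycosylphosphatidylinositol (GPI) anchor. In liver, hepatocytes make most plasma complement proteins and the resident macrophages, the Kupffer cells, make C1q.

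Levels are given as CPM, the unique molecular identifiers (UMIs) of a gene per 1000000 UMIs of a class, summed over its cells, with exact 95% Poisson intervals. Ratios carry exact conditional binomial intervals. Both cover counting error only. Unless said otherwise, triplets of values are in the order IDD, IDD+HTF, IDD+HID. The reads come from transcript 3' ends, so CPM are compared within a gene and not read as levels between genes.

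The libraries held 34552858, 55478904 and 75404660 UMIs, and 1307, 3202 and 3538 cells passed the limits, with medians of 3626, 4450 and 8596 UMIs per cell. Each pair of libraries shared 1 cell barcode. Of 27 clusters 6 stayed unnamed, and 6 classes held at least 50 cells in every library. Sinusoidal endothelial-like cells (318, 753 and 1109) had cluster 1 as their largest cluster in IDD and IDD+HTF (236 and 339 cells) and cluster 13 in IDD+HID (496). Kupffer-like cells (95, 385 and 559) came mostly from cluster 5 in IDD and IDD+HTF and from cluster 23, led by the inflammatory genes Cxcl2, Il1b and Cd83, in IDD+HID. The other classes were hepatocyte-like, B-like, T-like and stellate-like cells. All 10 sinusoidal endothelial markers were detected in the sinusoidal class and all 8 Kupffer markers in the Kupffer-like class of every library, at sums of 19074, 24010 and 26164 CPM and of 15294, 16408 and 13616 CPM. The control library is the shallowest, and both iron libraries are compared with that same library, so the 2 ratios of a gene share their denominator. TMM scaling would add 0.14 and 0.23 to the log2 ratios of IDD+HTF and IDD+HID in sinusoidal endothelial-like cells, 0.18 and 0.21 in stellate-like, 0.17 and 0.11 in B-like, 0.17 and 0.09 in T-like and 0.04 and 0.04 in Kupffer-like cells.

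Each gene is a single locus on the build GRCm38, with positions from GENCODE M21. C1qa, C1qb and C1qc lie side by side on the minus strand of chromosome 4, at chr4:136895917-136898803, chr4:136880129-136886187 and chr4:136889804-136893065. C3 is at chr17:57203970-57228136 and Cfp at chrX:20925454-20931555. Cd55 is at chr1:130439027-130462744, Cr1l at chr1:195097382-195131586 and Cd59a at chr2:104095801-104115354. The last 400 transcript bases, where this kit reads, shared no run of 31 bases with another gene for Cd55, Cd59a, C1qa, C1qb, C1qc, Cfp or C3. For Cr1l 31.8% of such runs also occurred in another gene, mainly the pseudogene Crry-ps, so its counts could be split and are less certain. An antisense gene, Gm16083, overlaps the 5' end of Cd55, and how strand was used in counting is not given in the sources used here. The mouse copies Cd55b and Cd59b stayed near 0: in sinusoidal endothelial-like cells Cd55b reached 2.47, 3.27 and 4.01 CPM and Cd59b 1.64, 0.193 and 0.273 CPM. Of their runs of 31 bases 16.5% and 25.6% also occurred in another gene, so these counts are less certain too.

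The 250 bases upstream of the start site are shown for 3 genes: Cd59a and Cd55, on whose endothelial and Kupffer-like levels the choice of members rested, and C1qb, whose Kupffer-like ratios to the control were 0.973-fold and 0.925-fold. They are printed 5' to 3' on the strand of the gene from RefSeq (GRCm38.p6), and 7 of the 8 members were in that table. Capitals mark every match to the motifs searched, on either strand.
Cd59a, chr2:104095551-104095800, plus strand: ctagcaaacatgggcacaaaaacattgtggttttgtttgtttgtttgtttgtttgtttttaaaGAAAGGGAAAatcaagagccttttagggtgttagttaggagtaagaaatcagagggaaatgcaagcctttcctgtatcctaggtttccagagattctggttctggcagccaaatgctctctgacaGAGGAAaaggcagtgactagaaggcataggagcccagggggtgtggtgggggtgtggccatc
Cd55, chr1:130462745-130462994, minus strand: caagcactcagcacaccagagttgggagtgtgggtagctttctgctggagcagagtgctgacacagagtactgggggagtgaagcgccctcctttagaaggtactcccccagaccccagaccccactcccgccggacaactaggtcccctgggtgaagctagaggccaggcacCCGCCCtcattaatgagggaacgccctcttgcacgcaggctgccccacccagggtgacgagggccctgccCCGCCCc
C1qb, chr4:136886201-136886450, minus strand: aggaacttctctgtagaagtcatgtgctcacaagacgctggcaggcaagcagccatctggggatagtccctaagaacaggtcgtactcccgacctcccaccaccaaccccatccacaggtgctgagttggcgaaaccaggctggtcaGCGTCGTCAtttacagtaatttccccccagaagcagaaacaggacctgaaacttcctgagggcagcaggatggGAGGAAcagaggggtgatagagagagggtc
The Cd59a window held the interferon-stimulated response element, searched as GAAA, 2 free bases and GAAA again (2.98% of the 32841 promoters of the same length hold it), and the PU.1 core GAGGAA (23.3%). Its GC content was 44.8%, below the median of 52.4% over all promoters, and it had 0 CG pairs. The Cd55 window was at 64% GC with 8 CG pairs, and its 2 matches were both the GC box GGGCGG, found in 32.7% of promoters. The C1qb window held the PU.1 core 30 to 25 bases before the start, and the antioxidant response element TGACNNNGC (10.2%). The other motifs searched were the TATA box TATAAA (12.4%), the AP-1 site TGANTCA (6.75%), the cyclic AMP response element TGACGTCA (1.55%) with its shorter form TGACGT (6.47%), the C/EBP site TTGCGCAA (0.164%), the E-box CACGTG (6.02%), the hypoxia element ACGTG (16.6%) and the CCAAT box CCAAT (33.9%). The STAT site was searched as TTCNNNGAA (7.02%) and with 1 more free base (5.85%), and the NF-kB site as GGG and TTTCC with 2 free bases between (1.41%). TGACGT lies inside TGACGTCA and ACGTG inside CACGTG. A match describes the letters of the window and is no evidence that a factor binds there.

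**Figure D1:**
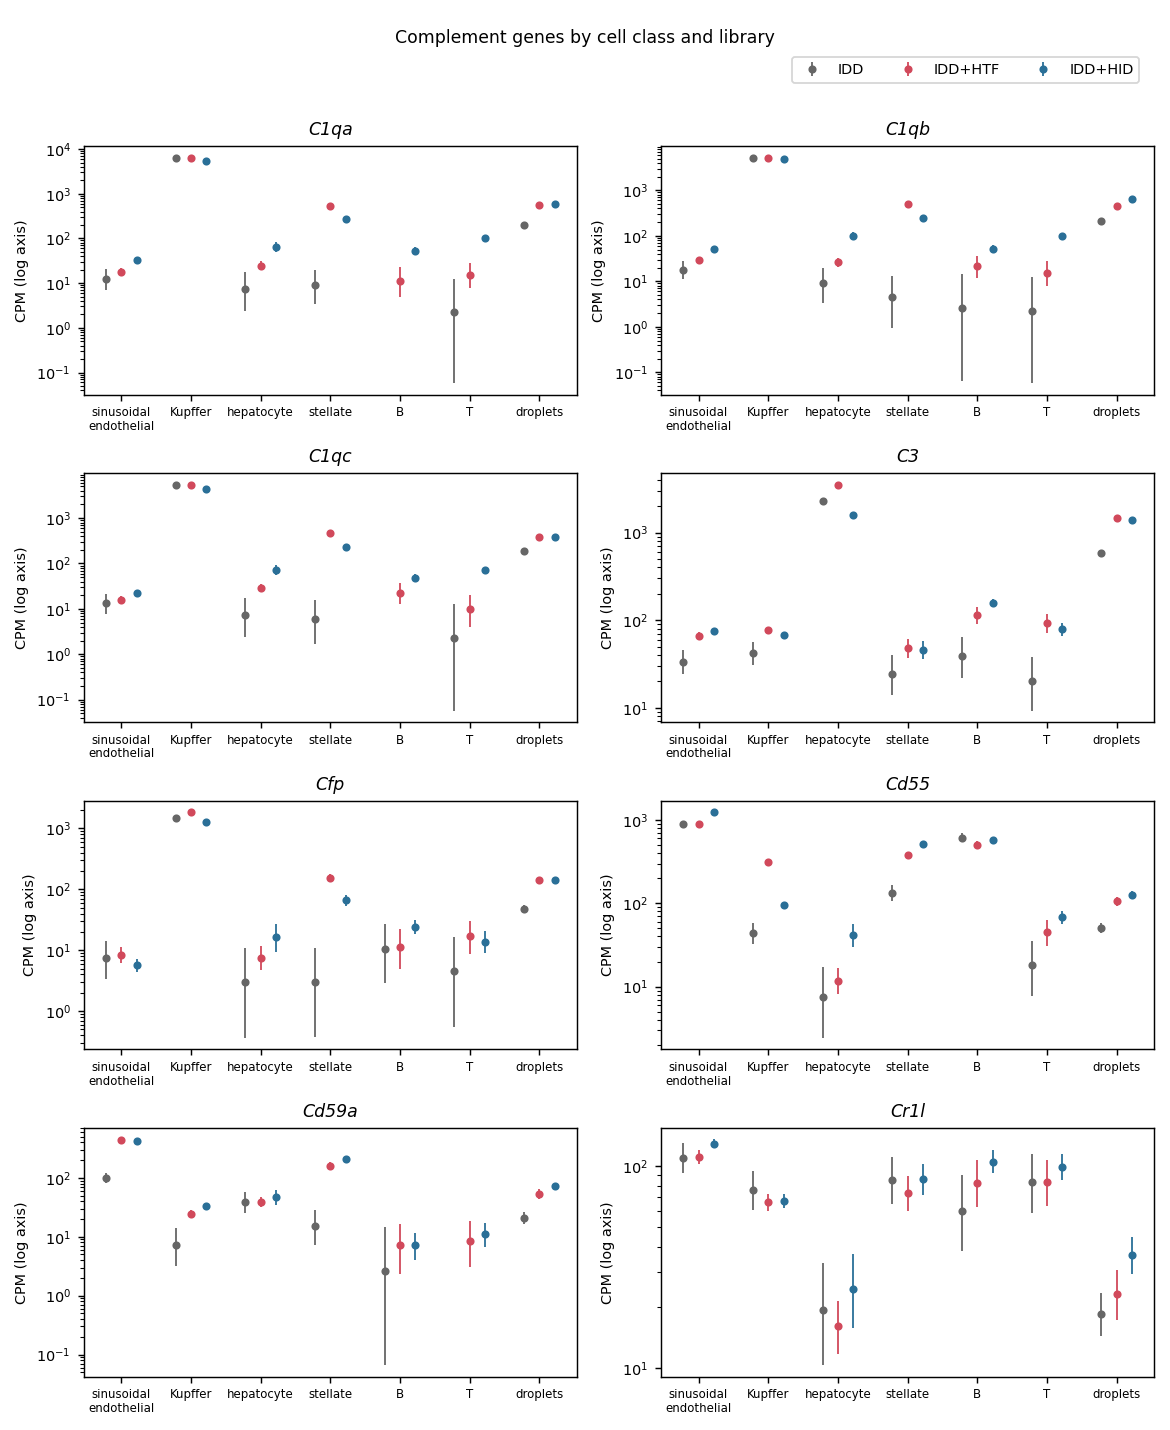
Level of each of the 8 genes in CPM (log axis) in 6 cell classes and in droplets with 100 or fewer UMIs, for IDD (grey), IDD+HTF (red) and IDD+HID (blue). Points are class sums, bars are 95% Poisson intervals, and a class with 0 UMIs has no point. C1q and Cfp are highest in Kupffer-like cells, C3 in hepatocyte-like cells, and Cd59a in sinusoidal endothelial-like cells.

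C1q was a product of Kupffer-like cells, with ratios to the control near 1. The 3 subunit genes, which encode the A, B and C chains of the C1q molecule, summed to 16901, 16480 and 14516 CPM. The sum was 0.975-fold the control in IDD+HTF (0.960 to 0.990) and 0.859-fold in IDD+HID (0.846 to 0.872). The IDD+HTF ratio lay on both sides of 1 over the alternatives, from 0.972 to 1.09. The IDD+HID ratio stayed below 1, up to 0.990, in each alternative run. Cluster 23, with 342 Kupffer-like cells of IDD+HID, was not run alone. It held 15 control cells, under the minimum of 20.

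Within the sum, C1qa gave 37.7%, 37.5% and 37.5% of the C1q UMIs of Kupffer-like cells. C1qb gave 30.7%, 30.6% and 33.0%, and C1qc gave 31.6%, 31.8% and 29.5%. C1qc thus had the lowest ratio of the subunits in IDD+HID, 0.802-fold (0.781 to 0.825), against 0.925-fold for C1qb. In cluster 5 alone C1qc was at 5486, 5496 and 4651 CPM and C1qb at 5396, 5220 and 5178 CPM. Cluster 23 had less of both, with C1qb at 3653, 4519 and 4576 CPM. There C1qb was higher in both iron libraries than in the few control cells, unlike in cluster 5. The cluster mix differed between the libraries: 342 of the 559 Kupffer-like cells of IDD+HID were in cluster 23, against 15 of 95 in IDD.

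Outside Kupffer-like cells C1q was low in the control and higher in both iron libraries in every other class with 50 cells. In stellate-like cells, the vitamin A-storing cells of the sinusoid wall, the sum was 19.9, 1514 and 748 CPM. Kupffer markers were higher beside it, at 30.6, 935 and 710 CPM, and so were sinusoidal endothelial markers, at 3062, 10069 and 11453 CPM. By those sinusoidal markers 16.1%, 41.9% and 43.8% of the RNA of the stellate-like class would be sinusoidal endothelial. Scaled by the Kupffer markers, Kupffer RNA would bring 33.8, 939 and 757 CPM of C1q, inside the interval of the measured level in IDD and IDD+HID and below it in IDD+HTF. In hepatocyte-like cells the sum was 23.9, 80.3 and 237 CPM, and Kupffer RNA would bring 26.4, 62.7 and 213 CPM. In sinusoidal endothelial-like cells it was 43.6, 63.1 and 107 CPM against 54.5, 36.9 and 45.7 CPM brought. The droplets that hold free RNA carried C1qa at 204, 556 and 601 CPM. The C1q sum of B-like cells was 2.61, 55.6 and 152 CPM, against 11.5, 38.7 and 104.6 CPM brought by Kupffer RNA. That of T-like cells was 6.76, 41.0 and 275 CPM, against 2.49, 58.25 and 159.6 CPM brought. In IDD+HID the level brought lay below the interval in both (136.6 to 169.3 and 251.3 to 300.3). In stellate-like, hepatocyte-like, B-like and T-like cells the C1q level thus moved with Kupffer markers, whose part in the result was not tested. In sinusoidal endothelial-like cells the Kupffer markers were flat (49.3, 36.8 and 42.8 CPM) while C1q was 1.45-fold (1.08 to 1.98) and 2.45-fold (1.86 to 3.29) the control, and in cluster 3 alone the IDD+HID ratio was 0.902-fold. By hepatocyte markers 10.2%, 6.80% and 6.69% of the UMIs of this class would be free RNA, which also carries C1q. The free-RNA droplets held 2247, 3039 and 4120 C1q UMIs among 3770157, 2184188 and 2536442 UMIs in all. At those shares this RNA would bring as much C1q as was measured in the class, or more. The part of that free RNA in these ratios was not tested, and no endothelial C1q is read from them.

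The subunit shares of the sinusoidal class differed from those of Kupffer-like cells. There C1qb made up 41.5% of 53 C1q UMIs in IDD (28.1% to 55.9%), 46.3% of 328 in IDD+HTF (40.8% to 51.9%) and 49.0% of 1173 in IDD+HID (46.1% to 51.9%), by exact Clopper-Pearson intervals. In free-RNA droplets the share was 34.8%, 33.0% and 38.8%. The sinusoidal share lay above the droplet and Kupffer-like shares of the same library in IDD+HTF and IDD+HID, with intervals that did not meet, and overlapped both in IDD. In stellate-like cells of the iron libraries it was 33.7% and 32.5%, nearer to the Kupffer-like share.

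**Figure D2:**
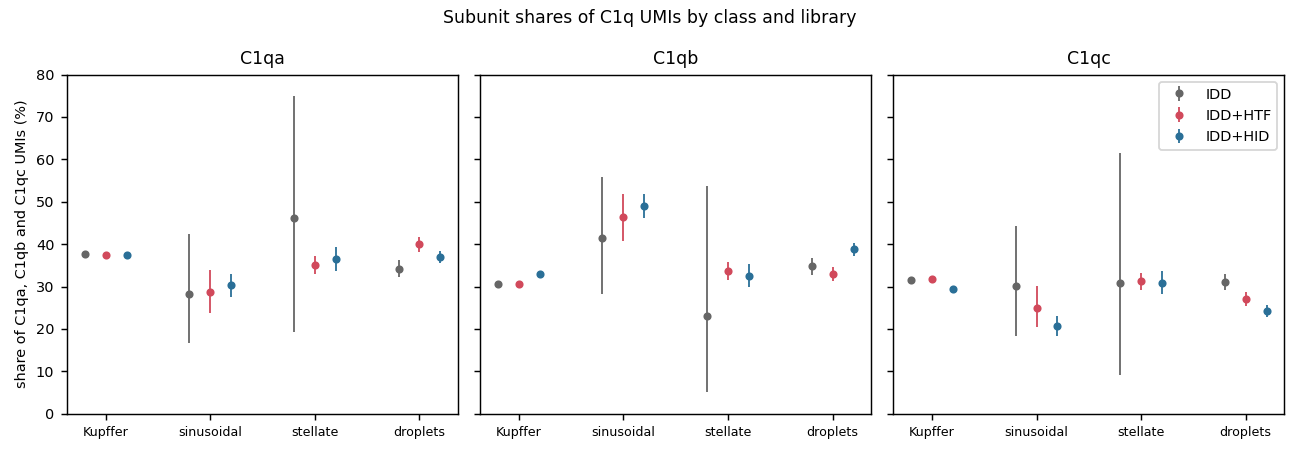
Share of each subunit among the UMIs of C1qa, C1qb and C1qc together (%), by class and library, with 95% Clopper-Pearson intervals. In IDD+HID the C1qb share is 33.0% in Kupffer-like and 49.0% in sinusoidal endothelial-like cells.

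C3, the central component, was highest by CPM in the few mesothelial-like cells, the lining of the liver surface, at 12545, 12107 and 15523 CPM in 3, 9 and 24 cells. In hepatocyte-like cells, its main source in liver, it was 2318, 3451 and 1574 CPM. The class ratio was 1.49-fold in IDD+HTF (1.41 to 1.57) and 0.679-fold in IDD+HID (0.633 to 0.729). The lower class value of IDD+HID did not hold within clusters. In cluster 4 C3 was 3820, 5340 and 7724 CPM, with only 9 cells in IDD+HID. In cluster 9 it was 2062, 3027 and 2601 CPM, a ratio of 1.47-fold in IDD+HTF (1.33 to 1.63) and 1.26-fold in IDD+HID (1.06 to 1.5). In cluster 8, where C3 was lowest, it was 286, 451 and 657 CPM, 1.58-fold (1.17 to 2.16) and 2.30-fold (1.73 to 3.11). Each of these 3 clusters was thus higher in both iron libraries than in the control. Of the hepatocyte-like cells of IDD+HID, 174 of 259 fell in cluster 8, against 58 of 247 in IDD and 197 of 1031 in IDD+HTF, and cluster 26 held 43 cells of IDD+HID and 0 of IDD.

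**Figure D3:**
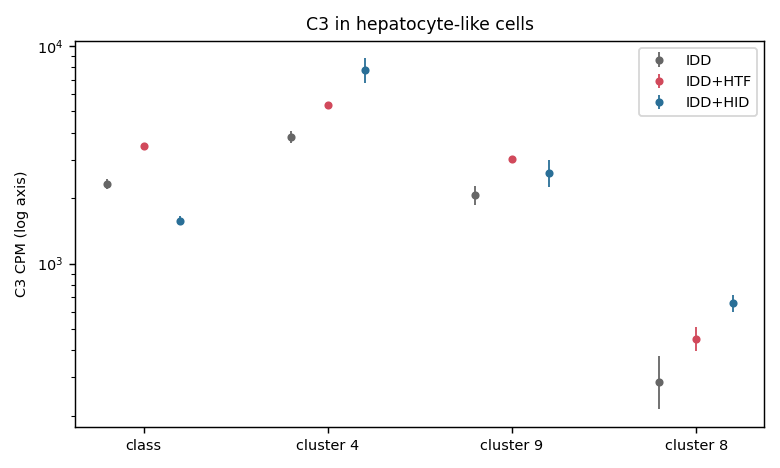
C3 in CPM (log axis) in the hepatocyte-like class and in its clusters 4, 9 and 8, by library, with 95% Poisson intervals. The IDD+HID class value is the lowest of the libraries, while in each cluster the IDD+HID value lies above IDD.

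The hepatocyte-like scale itself moved in IDD+HID. Over the 2777 genes measured there the median log2 ratio to IDD was 0.95, so most genes read as higher, and trimmed-mean (TMM) scaling shifted every log2 ratio by -0.90. With TMM the C3 class ratio was 0.363-fold. Of the other 49 complement genes 25 were measured there in IDD+HID, with 0 called higher and 11 lower at 1.5-fold and a median log2 ratio of -0.43, where 64.2% of all genes were higher and 12.1% lower. The 5 lowest by ratio to the control can be named: C4b, which feeds the classical C3 convertase, was 0.369-fold, C6 of the membrane pore 0.361-fold, C5 (Hc) 0.447-fold, C2 0.267-fold and the C1 protease C1s1 0.453-fold. The same mix of clusters applies to all of them.

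In the other classes C3 was 33.7, 66.8 and 75.3 CPM in sinusoidal endothelial-like cells, for example, below the 589, 1469 and 1391 CPM of the free-RNA droplets. Scaled by hepatocyte markers, that free RNA would bring 60.2, 99.9 and 93.0 CPM, more than was measured. In Kupffer-like cells C3 was 41.8, 76.5 and 67.9 CPM, with 17.0, 49.9 and 54.8 CPM brought. The smooth muscle or portal fibroblast-like class, with 6, 10 and 13 cells, had more, at 578, 2809 and 1865 CPM.

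Cfp, the properdin gene, was a Kupffer-like gene too. It was 1464, 1834 and 1291 CPM in Kupffer-like cells, 1.25-fold the control in IDD+HTF (1.19 to 1.32) and 0.882-fold in IDD+HID (0.837 to 0.930). The iron libraries lay on opposite sides of the control, and neither ratio reached 1.5-fold. With called doublets kept both were above it, at 1.44-fold and 1.04-fold. In cluster 5 alone the values were 1509, 1962 and 1458 CPM, so the IDD+HID ratio of 0.966-fold (0.911 to 1.03) no longer left 1, while IDD+HTF stayed at 1.30-fold (1.23 to 1.38). Plasmacytoid dendritic-like cells, a blood-derived type, carried 200, 118 and 113 CPM and neutrophil-like cells 167, 89.9 and 114 CPM, from 23, 72 and 121 and from 14, 16 and 33 cells. In stellate-like cells Cfp was 3.06, 155 and 65.6 CPM, and Kupffer RNA would bring 2.93, 104 and 67.4 CPM.

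Cd55 was a gene of sinusoidal endothelial-like and B-like cells in the control. In sinusoidal endothelial-like cells it was 903, 894 and 1228 CPM. The ratio to the control was 0.990-fold in IDD+HTF (0.927 to 1.06), or 1.09-fold with TMM scaling, and 1.36-fold in IDD+HID (1.28 to 1.45), or 1.60-fold with TMM. B-like cells gave 615, 498 and 574 CPM. The vascular endothelial-like class gave 517, 640 and 933 CPM from 32, 63 and 121 cells, 1.81-fold in IDD+HID (1.43 to 2.32). Among the 6 classes with 50 cells the order of Cd55 in IDD was sinusoidal endothelial-like, B-like, stellate-like and Kupffer-like. T-like cells followed at 18.0 CPM and hepatocyte-like cells at 7.47 CPM. The T-like interval (7.78 to 35.5) overlapped the Kupffer-like (32.1 to 57.8) and hepatocyte-like ones, so its place between them is not read.

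In Kupffer-like cells Cd55 was 43.6 CPM in IDD (48 UMIs, 32.1 to 57.8), 314 CPM in IDD+HTF (1941 UMIs, 300.2 to 328) and 94.2 CPM in IDD+HID (839 UMIs, 87.9 to 101). The IDD+HTF value stood apart, 7.21-fold over the control (5.42 to 9.81), and the IDD+HID value was 2.16-fold (1.62 to 2.96). Of the Kupffer-like cells 24.2%, 77.9% and 34.9% held a Cd55 UMI at median depths of 11825, 16013 and 15715 UMIs. Thinned to 1000 UMIs per cell these shares were 3.18%, 22.2% and 6.12%, and in T-like cells, which had little Cd55, 1.67%, 3.35% and 4.18%.

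Both clusters that make up the class were high in IDD+HTF, and they differed in IDD+HID. In cluster 5 Cd55 was 46.4, 310 and 49.6 CPM, so the IDD+HID ratio was 1.07-fold (0.764 to 1.52). In cluster 23 it was 22.8, 326 and 120 CPM, with 3 UMIs behind the control value. Cluster 6, unnamed but with Kupffer markers beside the hemoglobin gene Hbb-bs, had 22.8, 230 and 70.3 CPM. IDD+HTF was thus the highest of the libraries in each of these 3 clusters.

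Sinusoidal endothelial markers, like Cd55, were higher in both iron libraries in the Kupffer-like class. They were highest in IDD+HID, while Cd55 was highest in IDD+HTF. All 10 were detected in each library, at summed levels of 330, 1093 and 1666 CPM. Scaled by them, sinusoidal endothelial RNA would bring 15.7, 40.7 and 78.2 CPM of Cd55, which leaves 27.9, 273 and 16.1 CPM. In the Kupffer-like cells with at most 500 CPM of those markers (77 of 95, 303 of 385 and 437 of 559 cells) Cd55 was 43.7, 299.7 and 38.4 CPM. The ratio of IDD+HID to the control was 0.879-fold in those cells and 0.604-fold after subtraction. The part of sinusoidal RNA in the Cd55 values was not tested.

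**Figure D4:**
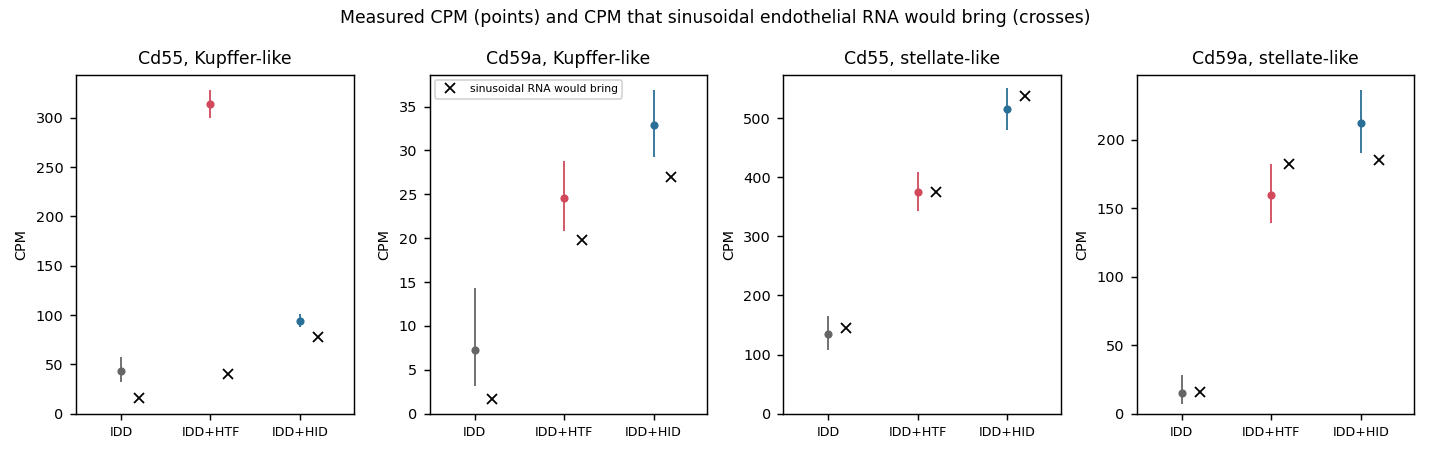
Cd55 and Cd59a in CPM in the Kupffer-like and stellate-like classes of each library (points with 95% Poisson intervals) beside the CPM that sinusoidal endothelial RNA would bring, scaled by 10 sinusoidal markers (crosses). All Kupffer-like points lie above their crosses, most of all Cd55 of IDD+HTF, at 314 against 40.7 CPM. In Kupffer-like cells of IDD Cd55 is at 43.6 against 15.7 CPM and Cd59a at 7.26 against 1.72 CPM.

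In stellate-like cells Cd55 was 135, 375 and 515 CPM, and sinusoidal RNA would bring 145, 375 and 537 CPM, inside the Poisson interval of each value. In T-like cells it was 18.0, 45.3 and 68.2 CPM with 2.88, 5.95 and 31.2 CPM brought, which leaves 15.1, 39.3 and 37.0 CPM. B-like cells kept 605, 488 and 557 CPM after the same subtraction, and B-like cells had 1.04%, 1.11% and 1.38% of sinusoidal RNA by these markers.

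Cd59a, the regulator of the membrane pore, was endothelial and was higher in both iron libraries in each endothelial cluster with 20 cells in all libraries. In sinusoidal endothelial-like cells it was 99.5 CPM in IDD (121 UMIs, 82.5 to 119), 435 CPM in IDD+HTF (417 to 453) and 423 CPM in IDD+HID (411 to 435). The ratios were 4.37-fold (3.64 to 5.29) and 4.25-fold (3.55 to 5.14). The mitochondrial share of UMIs, a sign of RNA quality, moved with the class, with medians per cell of 7.4%, 4.6% and 3.79%, and its part in the result was not tested. The iron libraries did not differ from each other beyond counting error, at 0.973-fold (0.925 to 1.02). A Cd59a UMI was found in 28.3%, 77.7% and 88.7% of the cells, at median depths of 3397, 6141 and 9914 UMIs. Thinned to 1000 UMIs the shares were 8.93%, 31.2% and 33.0%, and in B-like cells 0.274%, 0.383% and 0.686%.

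Cluster 1 held 236 control cells, while the control values of the other clusters given here rest on 31 to 62 cells, so their order in IDD is not read. In cluster 1 Cd59a was 87.7, 462 and 451 CPM, and the ratios were 5.27-fold (4.19 to 6.71) and 5.14-fold (4.10 to 6.52). Cluster 13, led by Cxcl10, Apold1 and Adamts1, had 134, 425 and 406 CPM, and cluster 3 had 139, 388 and 426 CPM. The vascular endothelial-like cluster 14 had 179, 375 and 456 CPM. Cluster 10, unnamed and led by Ccl21a, Rspo3 and Lhx6, scored highest for lymphatic endothelial markers and next for sinusoidal ones. It had 196, 457 and 493 CPM, so the ratios there were 2.32-fold (1.59 to 3.48) and 2.51-fold (1.77 to 3.67). The shallow unnamed cluster 2 had 45.6, 238 and 285 CPM.

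**Figure D5:**
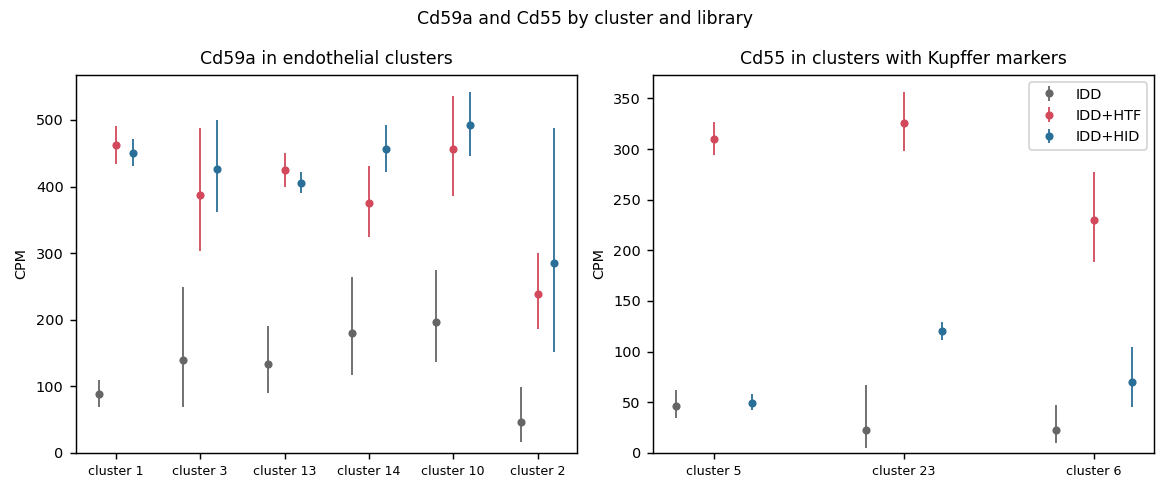
Cd59a in endothelial clusters (left; clusters 1, 3 and 13 are sinusoidal endothelial-like, 14 vascular endothelial-like, 10 and 2 unnamed) and Cd55 in clusters with Kupffer markers (right), in CPM by library with 95% Poisson intervals. Cd59a is higher in both iron libraries in all 6 clusters, and Cd55 of IDD+HTF is at 230 to 326 CPM in all 3.

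Outside endothelial cells Cd59a was compared with the sinusoidal RNA of each class, whose part was not tested. In stellate-like cells it was 15.3, 160 and 212 CPM, with 16.0, 182 and 185 CPM brought by that RNA. In Kupffer-like cells it was 7.26, 24.6 and 32.9 CPM, with 1.72, 19.8 and 26.9 CPM brought, and the Kupffer-like cells low in sinusoidal markers held 5.46, 8.72 and 6.30 CPM. Hepatocyte-like cells, with sinusoidal markers at 145, 212 and 726 CPM, had 38.9, 39.5 and 47.1 CPM of Cd59a, ratios of 1.01-fold (0.657 to 1.62) and 1.21-fold (0.734 to 2.04).

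Cr1l was low and even. Sinusoidal endothelial-like cells had 110, 111 and 129 CPM, Kupffer-like cells 76.2, 66.3 and 67.5 CPM, and T-like cells 83.4, 83.5 and 99.2 CPM. Stellate-like cells had 85.6, 73.5 and 86.0 CPM and hepatocyte-like cells 19.4, 16.1 and 24.6 CPM. The intervals of the ratios included 1 in these classes, though with TMM scaling the sinusoidal endothelial-like ratio of IDD+HID was 1.38-fold in place of 1.17-fold, while B-like cells had 59.9, 82.8 and 105 CPM, 1.76-fold in IDD+HID (1.14 to 2.82) from 23 control UMIs. In sinusoidal cluster 3 alone the control value rested on 3 UMIs, and the ratios of 2.42-fold and 3.39-fold there rest on that count.

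Members are counted here against the background of all measured genes. A gene was measured where the libraries compared held 50 or more of its UMIs in sum, and called where it was 1.5-fold apart, with no test. The contrasts of sinusoidal endothelial-like and Kupffer-like cells were used to choose the members, so nothing is read from their counts. In sinusoidal endothelial-like cells 3 of 8 members were called higher in IDD+HTF and 0 lower, where 9.67% of all genes were called higher and 9.81% lower (19.5% together). In IDD+HID 5 of 8 were higher and 0 lower, against 14.3% and 19.4% (33.7% together). In Kupffer-like cells 3 of 8 were higher in IDD+HTF and 0 lower, against 14.5% and 6.03% (20.5% together). In IDD+HID 3 of 8 were higher and 0 lower, against 18.1% and 7.79% (25.8% together). The members called in Kupffer-like cells were Cd55, Cd59a and C3 in both.

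The other classes come from the same libraries and hold sinusoidal and Kupffer markers. Their counts are thus not independent of the choice of members and are given as a description. In stellate-like cells 7 of 8 members, all but Cr1l, were higher in each iron library and 0 lower. There 24.4% of all genes were higher and 11.3% lower in IDD+HTF, and 31.3% and 16.2% in IDD+HID, beside the higher sinusoidal and Kupffer markers of that class given above. In hepatocyte-like cells the C1q genes alone were called, 3 of 6 measured members in IDD+HTF (background 17.7% higher and 14.3% lower) and 3 of 5 in IDD+HID, where 64.2% of all genes were higher and 12.1% lower. B-like cells had 1 of 3 higher in IDD+HTF (10.9% higher, 8.37% lower) and 6 of 7 in IDD+HID (18.6% and 8.51%). T-like cells had 1 of 2 (10.5% and 11.4%) and 5 of 6 (15.1% and 8.48%). Markers of other types were also higher there: hepatocyte markers were 967, 1323 and 2272 CPM in B-like and 257, 1306 and 1560 CPM in T-like cells, and Kupffer markers were 10.4, 38.5 and 98.1 CPM and 2.25, 58.0 and 150 CPM. Free hepatocyte RNA would bring 147 of the 157 CPM of C3 in B-like cells of IDD+HID. No member was called lower in any of these classes.

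Of the 49 other complement genes, 6 were called higher and 1 lower of 24 measured in sinusoidal endothelial-like cells of IDD+HTF, and 7 and 4 of 28 in IDD+HID, where 9.67% and 9.81%, then 14.3% and 19.4%, of all genes were higher and lower. In Kupffer-like cells 11 were higher and 1 lower of 26 in IDD+HTF (14.5% and 6.03% of all genes), and 14 and 1 of 28 in IDD+HID (18.1% and 7.79%). Clu and Vtn were among those called higher in both. In IDD+HTF they were 23.3 and 48.5 CPM, where free hepatocyte RNA would bring 26.6 and 59.1 CPM. In IDD+HID they were 18.3 and 31.6 CPM, against 25.5 and 40.7 CPM brought. The part of RNA from other classes in these counts was not tested. Among the initiators, the lectin gene Colec10 of stellate-like cells was 1722, 856 and 606 CPM, 0.352-fold in IDD+HID (0.322 to 0.384), while the related lectin gene Colec11 was 1403, 1768 and 2483 CPM and the protease Masp1 1455, 1186 and 1146 CPM. By sinusoidal markers 16.1%, 41.9% and 43.8% of the RNA of the stellate-like class would be sinusoidal endothelial. Its part in these stellate-like values was not tested. Ficolin A (Fcna) of Kupffer-like cells was flat at 1766, 1713 and 1762 CPM. Of the 16 initiators 7 were measured in sinusoidal endothelial-like cells in IDD+HTF, with 1 called higher and 1 lower, Colec12 at 0.473-fold (0.335 to 0.675).

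Among the receptors, Vsig4, a Kupffer receptor for C3 fragments, was 2051, 2374 and 2311 CPM in Kupffer-like cells. Itgam, a chain of complement receptor 3, was 9.08, 50.0 and 38.9 CPM there, 5.51-fold in IDD+HTF (2.96 to 11.6), from 10 control UMIs. The C3a receptor C3ar1 was 173, 243 and 258 CPM. Cr2, the receptor of B cells for C3 fragments, was lower in both iron libraries, at 260.5, 128 and 111 CPM, 0.493-fold (0.366 to 0.662) and 0.426-fold (0.337 to 0.543). Cd93 of sinusoidal endothelial-like cells was 256, 359 and 458 CPM, 1.78-fold in IDD+HID (1.59 to 2.01).

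Among the regulators, Thbd (thrombomodulin) of sinusoidal endothelial-like cells was 97, 130 and 221 CPM, 2.28-fold in IDD+HID (1.90 to 2.77). Vtn and Clu, plasma inhibitors of the pore made by hepatocytes, were called higher in several other classes, with Vtn at 24.7, 80.3 and 47.6 CPM in sinusoidal endothelial-like cells, where free hepatocyte RNA would bring 63.1, 118 and 69.1 CPM. C6, which is part of the pore, was 924, 885 and 789 CPM in Kupffer-like cells. Of the enzymes that build or attach the GPI anchor, 18 of 28 were measured in sinusoidal endothelial-like cells in IDD+HTF, with 1 higher and 1 lower (median log2 0.16 against 0.03 over all genes), against 9.67% and 9.81% of all genes. In IDD+HID 2 were higher and 3 lower of 21, against 14.3% and 19.4%. In Kupffer-like cells 0 of 18 were called in IDD+HTF (14.5% and 6.03% of all genes), and 2 were higher and 3 lower of 22 in IDD+HID (18.1% and 7.79%).

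The genes whose class and library pattern was most like each member were found by Pearson's r of log2(CPM + 5) over 18 values (6 classes in 3 libraries) among 17760 genes. This is a description, since the values of a library share its depth and its free RNA. For Cd59a they were Nostrin, Aass, S100a16, Car8 and Enpep (r from 0.949 to 0.944). For Cd55 they included Rasgrp3, Rubcn and Rasd1 (0.941, 0.937 and 0.931), and for Cr1l they included Rad21 (0.982). The C1q genes were each other's nearest (0.996 for C1qa with C1qc), followed by Vsig4, Clec4f and Lyz2, and Cfp was nearest Adgre1 (0.991). For C3 they were the plasma protein genes Fetub, Apoh, Itih1 and Cpn2 and the esterase gene Ces1e (0.987 to 0.982).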

How the data were processed

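Gene counts were measured in 3 single-cell liver libraries, 1 mouse each, made with a droplet kit that reads transcript 3' ends, per the labels' protocols. The authors deposited whole-number UMI counts per barcode and gene, not normalized, and the files still hold the near-empty barcodes. GRCm38 and Seurat 4 are named in the submitters' processing notes. An aligner and a counter were not given in the sources used here. The files hold 0 columns of other samples.

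Cells were barcodes with at least 1000 UMIs, 300 genes and at most 20% mitochondrial UMIs. Scrublet (scanpy 1.11.5, expected share 6%) removed 2.02%, 0.187% and 0.198% of barcodes in IDD, IDD+HTF and IDD+HID. At under 0.5% it has not worked in the latter pair, so doublets remain. Leiden clustering (igraph 0.11.9, resolution 1) used 2000 variable genes without the complement genes, 30 components and 15 neighbours, and clusters were named from marker lists, with thresholds set after their profiles were seen. A difference from the study's own cell types may come from these rebuilt names. Counts were summed per class and library (CPM), with exact intervals. Thinned shares are expectations over draws of 1000 UMIs, with approximate intervals. A share of 0 allows 3 counts of the total. The methods were tested on simulated data. TMM factors came from edgeR 4.0.16.

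The members and lists were chosen with earlier results of these data known. Named genes were the 8 members, up to 5 other complement genes per class and comparison with the largest change of at least 1.5-fold whose interval left 1, and the 5 genes most like each member. Other complement genes named as flat or as context were chosen after their values were seen.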

Additional observations from a re-analysis of the deposited data

Results flagged for a closer look

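For 2 genes the iron libraries lay on opposite sides of the control. Cfp in Kupffer-like cells was 1.25-fold the control in IDD+HTF and 0.882-fold in IDD+HID, though with called doublets kept the latter was 1.04-fold, and in cluster 5 alone it was 0.966-fold (0.911 to 1.03). C3 in hepatocyte-like cells was 1.49-fold in IDD+HTF and 0.679-fold in IDD+HID. With 1 mouse per group the difference between the iron libraries was not tested for either gene. Within hepatocyte-like clusters 8 and 9 the C3 ratio of IDD+HID was 2.30-fold and 1.26-fold, above the control.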

How the results depend on the processing

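Ratios have no replicate check, and depth limits those from few control UMIs. No paired analysis was possible because each group is 1 mouse. The 4 alternatives were chosen after seeing the data: cluster 6 added, sinusoidal RNA subtracted, cells low in sinusoidal markers, and clusters weighted equally. Where a ratio moved, the cause was not tested.

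Cd55 in Kupffer-like cells of IDD+HTF was 10.1-fold after subtraction of sinusoidal RNA. In IDD+HID it was 1.33-fold with called doublets kept, 1.51-fold at clustering resolution 2 and 1.07-fold in cluster 5 alone, and it turned to 0.604-fold after that subtraction and to 0.879-fold in cells low in sinusoidal markers. Cd59a in sinusoidal endothelial-like cells of IDD+HTF was 2.80-fold in cluster 3, 3.17-fold in cluster 13 and 3.54-fold with clusters weighted equally. In IDD+HID it was 5.14-fold with median-of-ratios scaling and in cluster 1, 3.07-fold in cluster 3 and 3.03-fold in cluster 13.

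The C1q sum of Kupffer-like cells in IDD+HTF was 1 with TMM scaling, 1.09 with doublets kept, 1.03 with cells weighted equally or thinned, 1.05 at resolution 0.5, 1.07 at resolution 2, 1.05 with cluster 6, 1.00 after the subtraction, 1.03 in cells low in sinusoidal markers and 1.02 with clusters weighted equally. In the same order for IDD+HID it was 0.885, 0.990, 0.891, 0.940, 0.969, 0.938, 0.902, 0.919 and 0.956, and 0.907 in cluster 5.

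Of the 57 complement genes, 32 were measured in sinusoidal endothelial-like cells of IDD+HTF and 10 called, where 19.5% of all genes were called. The alternatives gave 4 after thinning, 2 in cluster 3, 6 in cluster 13, 19 when measured from 1 UMI and 5 at 2-fold. In IDD+HID 16 of 36 measured were called (33.7% of all genes). The alternatives there gave 8 after thinning, 2 in cluster 3, 26 from 20 UMIs, 28 from 1 UMI and 6 at 2-fold. In Kupffer-like cells 15 of 34 were called in IDD+HTF (20.5% of all genes), against 1 after thinning and 23 from 1 UMI. In IDD+HID 18 of 36 were called (25.8% of all genes), against 2 after thinning and 6 in cluster 5. Thinning leaves fewer genes over the minimum of 50 UMIs. The share of all genes called is not given for the alternatives, so nothing is read from their counts.

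Among the other member ratios 1001 alternative values were computed for 79 ratios, of which 93 lay on the other side of 1 from the reported ratio. Most of those ratios were within 1.5-fold of the control, among them C3 in hepatocyte-like cells of IDD+HID in cluster 8 (2.30), Cfp in Kupffer-like cells of IDD+HID with doublets kept (1.04) and Cr1l in sinusoidal endothelial-like cells of IDD+HID in cluster 13 (0.897). The 8 that crossed from a ratio at least 1.5-fold apart were Cd59a in Kupffer-like cells of IDD+HTF after the subtraction (0.893), C3 there with clusters weighted equally (0.987), and C3 in IDD+HID after free RNA was subtracted (0.537) or with clusters weighted equally (0.886). In sinusoidal endothelial-like cells of IDD+HID they were C1qa (0.751), C1qc (0.530) and the C1q sum (0.902) in cluster 3, and C1qc with clusters weighted equally (0.837).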
